A study of Rattus norvegicus with 6 samples.

Results

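The 10 genes described here, A2m, Orm1, Hp, Lcn2, Lbp, Serpina3n, Cp, Hpx, Cd14 and Socs3, rise in the acute phase response of the rat. They were taken as all non-control probes whose RefSeq transcript belongs to one of these symbols, which gave 18 probes for 10 of the 27642 genes measured on the arrays. RNA was taken from the livers of 6 male Sprague-Dawley rats, bought at 5 weeks of age and kept on a basal diet, and measured on 1-colour arrays, 1 per animal. Of these, 3 animals received corn oil and 3 received tris(2-chloroethyl) phosphate (TCEP), an organophosphate used as a flame retardant, at a daily dose of 400 mg per kg. The treatment protocol gives 9 weeks of dosing and the design text of the series 28 days, so the length of exposure is uncertain. The comparison asks whether acute phase transcripts differ between dosed animals and animals given corn oil.

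The acute phase response is the change in liver output that follows infection or injury. Macrophages release interleukin-1, tumour necrosis factor and interleukin-6. Interleukin-6 acts on hepatocytes through the shared receptor chain gp130 (Il6st), JAK kinases and the transcription factor STAT3, and interleukin-1 acts through NF-kB and C/EBP factors. Hepatocytes then secrete protease inhibitors, carriers and scavengers in larger amounts, and the inhibitor SOCS3 shuts down signalling by gp130. In rats A2m is the classical strongly induced member, while albumin and transthyretin fall and are called negative acute phase proteins.

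RefSeq promoter windows of assembly GRCr8 matched 7 of the 10 members. For A2m, Hp and Lbp none is given. Shown are the windows of 4 members that hold a match to a motif of the STAT, C/EBP or NF-kB pathway. Cd14 also holds 1 such match but is not shown, and Cp and Hpx hold none. Each line gives the 250 bases before the annotated transcription start, 5′ to 3′ on the strand of the gene. Matches to the motifs searched are in capitals. Whether these starts are the ones used in these livers was not tested, so a window may lie outside the main promoter.
Serpina3n, chr6:129088142-129088391, plus strand: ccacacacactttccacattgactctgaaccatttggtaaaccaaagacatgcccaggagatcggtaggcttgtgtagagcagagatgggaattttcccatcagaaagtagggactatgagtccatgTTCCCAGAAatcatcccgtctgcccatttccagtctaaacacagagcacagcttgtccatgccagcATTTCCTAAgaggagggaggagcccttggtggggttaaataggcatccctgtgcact
Orm1, chr5:81788259-81788508, plus strand: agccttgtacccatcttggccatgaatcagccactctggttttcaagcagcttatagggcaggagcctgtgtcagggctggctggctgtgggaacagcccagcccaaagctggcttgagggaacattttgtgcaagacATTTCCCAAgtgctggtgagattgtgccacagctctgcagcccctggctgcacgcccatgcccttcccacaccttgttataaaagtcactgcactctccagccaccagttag
Lcn2, chr3:36081781-36082030, minus strand: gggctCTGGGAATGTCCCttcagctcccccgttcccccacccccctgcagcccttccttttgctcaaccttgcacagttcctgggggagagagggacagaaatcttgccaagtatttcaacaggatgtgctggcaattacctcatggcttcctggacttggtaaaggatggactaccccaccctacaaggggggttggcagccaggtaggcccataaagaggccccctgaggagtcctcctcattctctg
Socs3, chr10:103694769-103695018, minus strand: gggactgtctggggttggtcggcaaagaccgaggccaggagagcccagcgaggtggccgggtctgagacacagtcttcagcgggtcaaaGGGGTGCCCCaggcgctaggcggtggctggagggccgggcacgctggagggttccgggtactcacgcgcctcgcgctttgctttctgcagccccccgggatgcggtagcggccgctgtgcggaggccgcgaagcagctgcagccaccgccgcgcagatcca

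Matches were searched on both strands over the 250 bases before and 50 bases after the start. The palindrome TTCNNNGAA, the form that STAT factors bind, was found in 1 of the 7 promoters, that of Serpina3n at -123, and in 8.87% of 33469 promoters. The same palindrome with 1 more base in its middle was found in 0 of 7 and in 7.28% of all. The core CTGGGAA, known from the A2m gene, was found in Serpina3n, where it overlaps the palindrome, and in Lcn2 at -245, against 11.3% of all promoters. A C/EBP form, TTNNGNAAT, was found in Orm1 at -112, Serpina3n at -57 and Cd14 at -78, against 12.3% of all. The NF-kB decamer was found in Lcn2 at -242, overlapping the core CTGGGAA, and in Socs3 at -161, where both strands match, against 7.51% of all. These matches describe the letters of the windows and are not shown to be bound in these livers.

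All 18 probes were well above background on all 6 arrays, with 0 saturated or outlier-flagged values, so each member was measured in every animal. Values are log2 of the processed signal minus the 75th percentile of the array, so that 0 is the signal of a probe at that percentile. A probe's level is not comparable with another probe's. The labelled tissue was borne out by its markers: 11 of 11 hepatocyte markers were measured, Alb at 9.76 to 10.08 and Ttr at 10.20 to 10.35. Corn oil replicate 2 stood apart in handling: it lay alone on its slide, was scanned 23 days after the other arrays, and had the lowest share of probes well above background, 57.2% against 61.6% to 64.4%. Corn oil replicates 1 and 3 shared a slide, and the 3 TCEP arrays shared another that held no corn oil array, so slide and treatment cannot be told apart for them. Values without corn oil replicate 2, which are those of the first scan day, are given beside the members and beside some genes of related lists.

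In the TCEP livers 9 of the 10 members had a lower mean than in the corn oil livers, and no member passed the test. Means were lower in TCEP for 49.1% of all genes. The median log2 difference of the members was -0.26, against 0.0048 over all genes. In limma 0 of 10 members passed an adjusted p of 0.05, and 0% of all genes did. At an unadjusted p under 0.05 there were 2 members, A2m and Socs3, both lower; among all genes 9.2% did so, 4.19% with a lower and 5.01% with a higher mean. In these 2 the 3 TCEP values lay below all 3 corn oil values, which held for 7.06% of all genes. Without corn oil replicate 2 the median of the members was -0.11 and 7 of 10 had a lower mean, against 49.1% of all genes. Because the liver was measured in bulk, fewer cells of a type and less RNA per cell cannot be told apart.

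**Figure D1:**
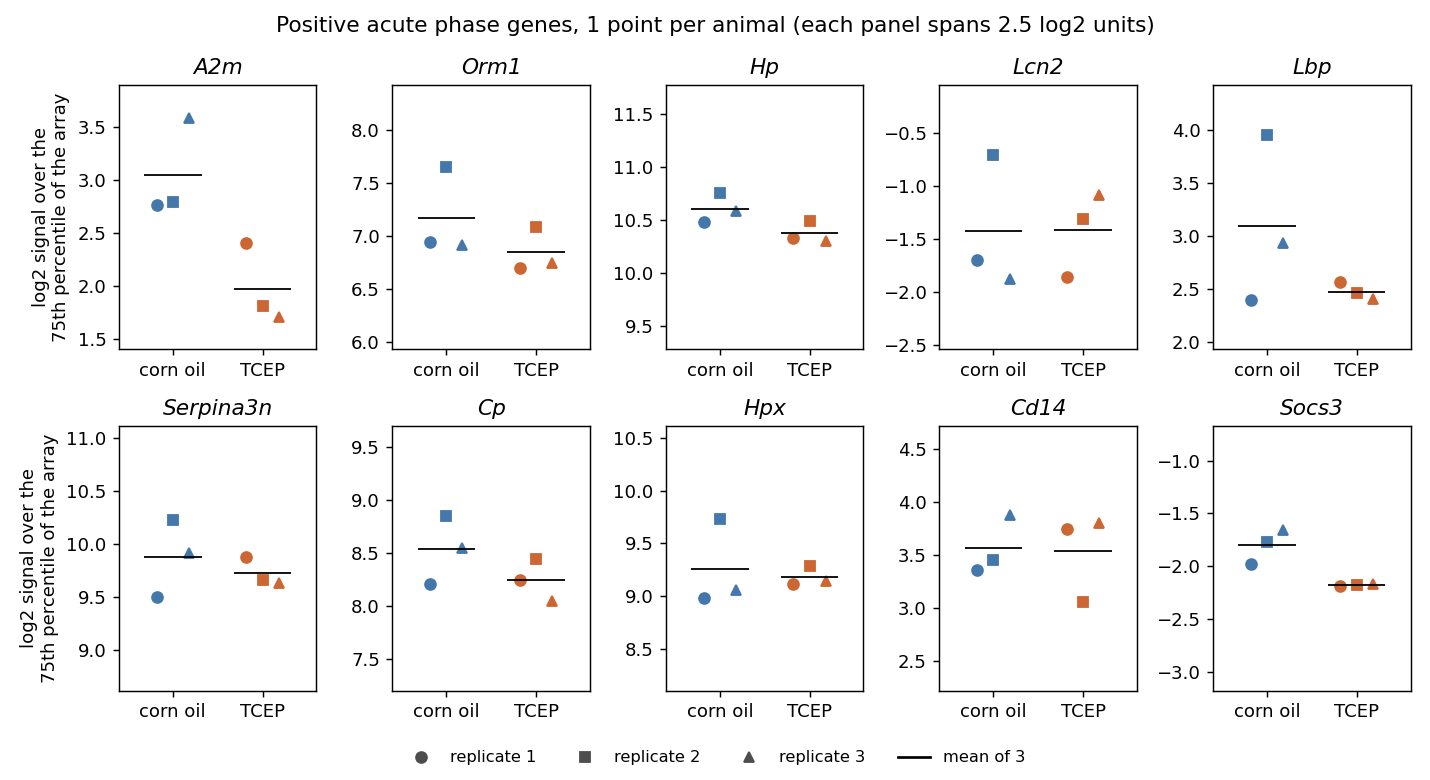
Signal of the 10 members in each animal (log2 over the 75th percentile of the array), with corn oil in blue, TCEP in orange, a marker shape per replicate and a line at the mean of 3 animals. A2m and Socs3 show groups that do not overlap, and the square of corn oil replicate 2 is the highest point for 7 members.

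The largest difference was that of A2m, alpha-2-macroglobulin, a plasma inhibitor that traps proteases. By its brightest probe the corn oil values were 2.76, 2.79 and 3.59, and the TCEP values 2.41, 1.81 and 1.71, in the order of replicates 1 to 3. Corn oil replicate 3 was the highest, and every TCEP animal lay below every corn oil animal. The corn oil mean was 3.05 ± 0.47 and the TCEP mean 1.97 ± 0.38 (SD, n = 3 each), a 2.11-fold higher signal in corn oil. The log2 difference of -1.08 ± 0.29 (SE, 95% interval -1.78 to -0.37) had an unadjusted p of 0.0093 and an adjusted p of 0.477 in limma.

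A2m had 2 further probes on the array, and all 3 gave nearly the same profile. Between probes the correlation over the 6 arrays, which share their libraries, was 0.998 to 0.999. The log2 differences of the probes ran from -1.11 to -1.08, and in each the groups did not overlap. Leaving out corn oil replicate 2 gave a difference by the brightest probe of -1.20 ± 0.33 (SE). It was -0.80 without corn oil replicate 3, the animal with the highest A2m signal.

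Socs3, the feedback inhibitor of gp130 and JAK kinases, was the other member with groups that did not overlap. Its corn oil values were -1.97, -1.77 and -1.66, and its TCEP values -2.19, -2.17 and -2.17. The TCEP animals spanned 0.021 log2 units and lay below all corn oil animals. The log2 difference was -0.38 ± 0.11 (SE, 95% interval -0.64 to -0.11), with an adjusted p of 0.484 in limma. It was -0.36 ± 0.13 (SE) without corn oil replicate 2.

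The dimmer Socs3 probe gave overlapping groups. Its corn oil values were -4.37, -3.16 and -3.64 and its TCEP values -3.66, -4.14 and -3.81, a log2 difference of -0.15 ± 0.31 (SE). The correlation between the Socs3 probes over the 6 arrays was 0.45, the lowest between probes of any member. The difference of Socs3 thus rests on 1 of its 2 probes. Over the same 6 arrays the brighter Socs3 probe correlated with A2m at 0.89, a description over arrays that share the group difference.

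**Figure D2:**
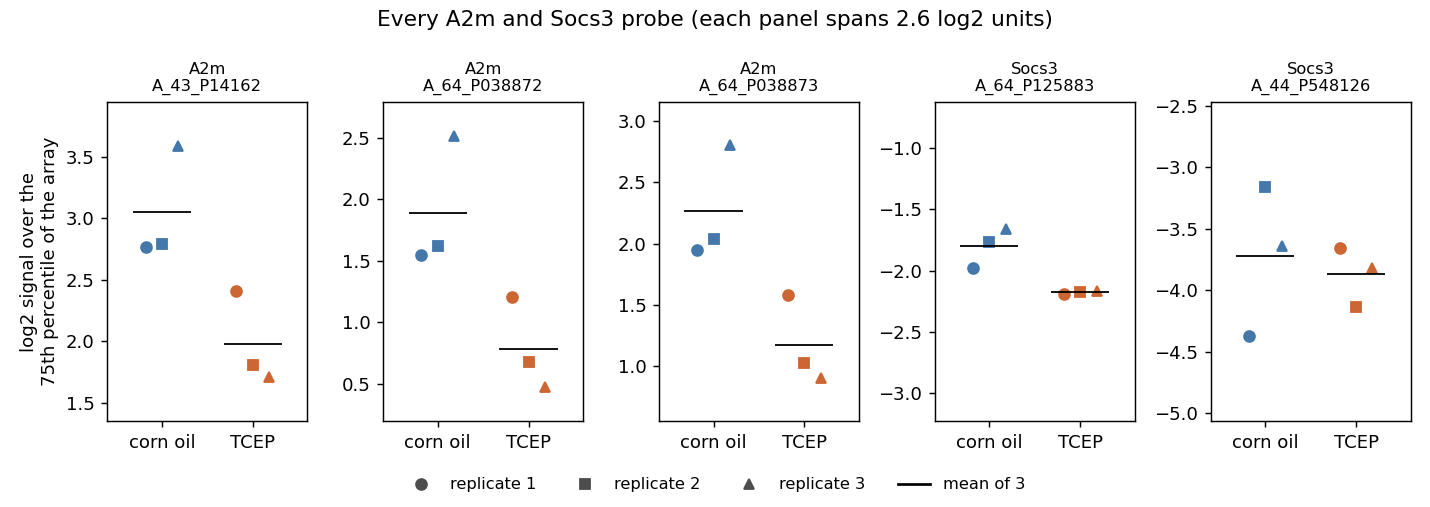
Signal of every A2m and Socs3 probe in each animal (log2 over the 75th percentile of the array), with symbols as in the plot of all members. The 3 A2m probes repeat one pattern with log2 differences of -1.11 to -1.08, while the dimmer Socs3 probe, with a log2 difference of -0.15, shows groups that overlap.

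Among the secreted carriers and inhibitors, haptoglobin (Hp), which binds free haemoglobin, had corn oil values of 10.48, 10.75 and 10.59 and TCEP values of 10.34, 10.49 and 10.30. The groups overlapped only in that TCEP replicate 2 lay just above corn oil replicate 1. The log2 difference was -0.23 ± 0.11 (SE, 95% interval -0.50 to 0.040; adjusted p = 0.582, limma). The second Hp probe gave -0.24 ± 0.12 (SE). Without corn oil replicate 2 the difference was -0.16 ± 0.12 (SE).

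Hemopexin (Hpx), which binds free heme, had corn oil values of 8.99, 9.73 and 9.06 and TCEP values of 9.11, 9.29 and 9.15. All TCEP animals lay above corn oil replicates 1 and 3 and below corn oil replicate 2. The log2 difference of -0.078 ± 0.21 (SE) became 0.16 ± 0.11 without corn oil replicate 2, so its sign was set by that array. Ceruloplasmin (Cp), the copper-carrying ferroxidase, had corn oil values of 8.20, 8.85 and 8.55 and TCEP values of 8.25, 8.44 and 8.05 by its brightest probe. The corn oil group spread more widely, and the log2 difference was -0.29 ± 0.19 (SE), or -0.13 ± 0.18 without corn oil replicate 2. The 4 Cp probes gave differences of -0.43 to -0.29 and correlated at 0.953 to 0.993 over the arrays.

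Orm1, alpha-1-acid glycoprotein, a plasma carrier of basic drugs, had corn oil values of 6.95, 7.66 and 6.92 and TCEP values of 6.70, 7.09 and 6.75. Corn oil replicate 2 was the highest, and TCEP replicate 2 lay above the other corn oil animals. The log2 difference was -0.33 ± 0.23 (SE, 95% interval -0.89 to 0.23; adjusted p = 0.687, limma), and -0.085 ± 0.15 without corn oil replicate 2. Serpina3n, a secreted serine protease inhibitor, had corn oil values of 9.50, 10.23 and 9.92 and TCEP values of 9.88, 9.66 and 9.63. The TCEP values lay inside the corn oil range. The log2 difference was -0.16 ± 0.20 (SE), and 0.018 ± 0.17 without corn oil replicate 2. The rat has several close relatives of Serpina3n, so this probe may also report related transcripts.

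The members that bind bacterial products behaved differently from one another. Lbp, which carries lipopolysaccharide to its receptor, had corn oil values of 2.40, 3.96 and 2.94 and TCEP values of 2.57, 2.46 and 2.40. The corn oil animals spanned 1.56 log2 units, and the TCEP animals 0.17. The log2 difference was -0.62 ± 0.38 (SE, 95% interval -1.54 to 0.29; adjusted p = 0.645, limma), a 1.54-fold higher mean in corn oil. Without corn oil replicate 2 it was -0.19 ± 0.18 (SE).

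Cd14, the co-receptor that takes lipopolysaccharide from LBP and that macrophages also make, had corn oil values of 3.36, 3.45 and 3.88 and TCEP values of 3.75, 3.05 and 3.80. TCEP replicate 2 was the lowest and corn oil replicate 3 the highest. The log2 difference was -0.030 ± 0.25 (SE, 95% interval -0.63 to 0.57), and the second Cd14 probe gave -0.038. By the brightest probe the difference was -0.085 ± 0.29 (SE) without corn oil replicate 2. Of 14 macrophage markers 12 were measured; Itgam did not rise above background on any array and Timd4 had no matching probe. Their summed signal, as multiples of the 75th percentile, was 122.6 to 267.8 in corn oil and 164.8 to 197.7 in TCEP. Over the 6 arrays Cd14 correlated at 0.60 with the log2 of that sum, against 0.73 for Serpina3n, 0.57 for Lbp and 0.54 for Socs3. The part of these cells in the Cd14 signal was not tested.

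Lcn2, lipocalin-2, which binds the iron carriers of bacteria and is also a neutrophil granule protein, was the member with a higher mean in TCEP. Its corn oil values were -1.70, -0.71 and -1.88 and its TCEP values -1.86, -1.31 and -1.09. Corn oil replicate 2 was the highest, but TCEP replicates 2 and 3 lay above the other corn oil animals. The log2 difference of 0.011 ± 0.35 (SE, 95% interval -0.85 to 0.87) became 0.37 ± 0.25 without corn oil replicate 2. Of 12 neutrophil markers 4 were measured; Elane, Ngp, Mmp8 and Mmp9 were not well above background on any array, Cxcr2, Csf3r and Ly6g6e on at most 2, and Mpo had no matching probe. The summed signal of the 4 was 1.61 to 6.68 in corn oil, with the highest value in corn oil replicate 2, and 2.21 to 3.58 in TCEP. Over the 6 arrays the log2 of this sum correlated with Lcn2 at 0.81, with Orm1 at 0.87 and with Hpx at 0.86. Lcn2 correlated at 0.71 with the summed hepatocyte markers, which include the positive acute phase genes Fgb and Serpina1. Orm1 correlated at 0.94 with summed stellate cell markers and 0.88 with the hepatocyte sum, and Hpx at 0.75 and 0.70. These members and the neutrophil, stellate and hepatocyte sums were all highest on corn oil replicate 2, so the correlations share that array. The part of neutrophils in the Lcn2 signal was not tested.

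**Figure D3:**
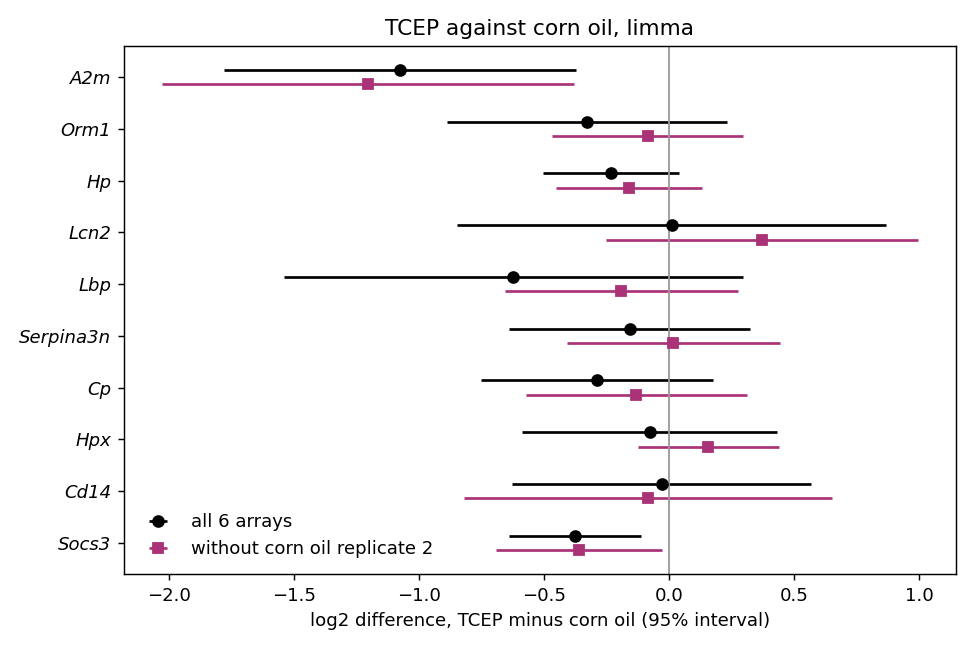
Log2 difference of each member, TCEP minus corn oil, with its 95% interval from limma, for all 6 arrays (black) and without corn oil replicate 2 (purple). The interval lies below 0 for A2m and Socs3 in both fits, while Hpx and Serpina3n change sign when that array is left out and Lcn2 moves from 0.011 to 0.37.

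Corn oil replicate 2 had the highest signal of all 6 arrays for 7 members, namely Orm1, Hp, Lcn2, Lbp, Serpina3n, Cp and Hpx. Over all genes it was highest for 17.9%. Relative to the mean of corn oil replicates 1 and 3 it was higher by 1.29 log2 units for Lbp, 1.08 for Lcn2, 0.73 for Orm1 and 0.71 for Hpx. These 4 members lay above the 95th percentile of all genes, which was 0.66. The median over the 10 members was 0.50, against -0.0071 over all genes. For A2m the same array was lower than the other corn oil animals, by -0.38, and for Cd14 by -0.16. The high values of corn oil replicate 2 therefore did not extend to every member. Its later scan, its own slide and the animal itself cannot be told apart.

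The same array was also high for other genes listed as rising in an acute phase response. It was the highest array for 17 of 24 measured genes of a further list of positive acute phase genes, and their median excess over corn oil replicates 1 and 3 was 0.37. The kininogens Kng1 and Kng2, precursors of kinins, had excesses of 1.94 and 2.03, and Fgl1, a fibrinogen-like hepatocyte protein, 1.22. The Kng1 and Kng2 transcripts are alike, so their probes may share signal. Among 18 kinases, transcription factors and inhibitors the array was highest for 7, with a median excess of 0.15. The largest excesses in that list were 3.05 for Socs2 and 2.42 for Cish, which growth hormone is known to induce. Bcl3, a cofactor of NF-kB, had an excess of 1.77 and Stat3 0.79, while Cebpb had -0.34 and Nfkbia, the inhibitor of NF-kB, -0.39. Nfkbia, Kng1, Kng2, Fgl1, Stat3, Socs2 and Cish were named here after their values were seen. Of 10 negative acute phase genes 2 were highest on that array, with a median excess of 0.025, and of the 11 hepatocyte markers 2, with a median excess of 0.076. Macrophage markers had a median excess of 0.41, with 1 of 12 highest there. Relative to the corn oil mean their medians were -0.86, 0.27 and 0.59 in corn oil replicates 1 to 3. Their excess in replicate 2 thus came with a low replicate 1, and replicate 3 was higher still. The 4 neutrophil markers had a median excess of 1.48, with 3 highest there. Stellate cell markers had a median excess of 0.16, with 6 of 10 highest there.

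**Figure D4:**
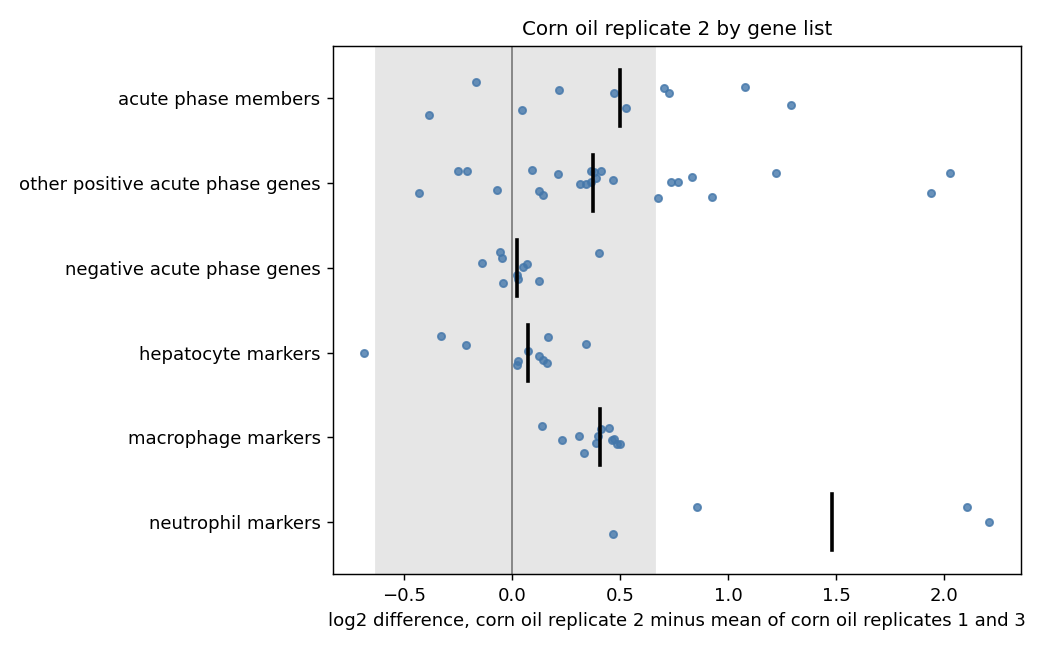
Signal of corn oil replicate 2 minus the mean of corn oil replicates 1 and 3 (log2), 1 point per gene in 6 gene lists, with black bars at list medians and a grey band from the 5th to the 95th percentile of all genes (-0.63 to 0.66). Of the 10 members 4 lie to the right of the band, as do 8 of 24 other positive acute phase genes. So do 3 of 4 neutrophil markers, against 0 of 10 negative acute phase genes, 0 of 11 hepatocyte markers and 0 of 12 macrophage markers.

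The members did not form a single profile over the animals. Among the 45 pairs of members the correlation over the 6 arrays ran from -0.44 (Orm1 and Cd14) to 0.94 (Hp and Cp), with a median of 0.56. Lbp correlated with Serpina3n at 0.92 and Orm1 with Hp at 0.90, whereas A2m correlated with Lcn2 at -0.40 and with Hpx at -0.065. These are descriptions over 6 arrays that share 1 divergent array. Among 10429 other genes that had a symbol and stood well above background on every array, the 4 most like the mean profile of the members were C6, a terminal complement component (r = 0.988), C11h3orf38 (0.986), Cdc42ep2 (0.981) and Sgce (0.978). All 4 were highest on corn oil replicate 2, as was the mean profile they were matched to, so this follows from how they were picked.

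Other positive acute phase genes had lower means in TCEP for 19 of 24 measured members, with a median log2 difference of -0.18, and 0 passed an adjusted p of 0.05 in either direction. Without corn oil replicate 2 the median was -0.056, with 15 lower. At an unadjusted p under 0.05 there were 2, both lower, against 4.19% of all genes. In 3 of the 24 the TCEP group lay wholly below corn oil, against 7.06% of all genes: these 2 and Saa4, a serum amyloid A. Saa4 had a difference of -0.26 ± 0.15 (SE), and -0.11 without corn oil replicate 2. It is made constitutively but was counted in this list, so the list does not hold induced genes only. Il1rn, the interleukin-1 receptor antagonist, had corn oil values of 3.28, 3.57 and 3.24 and TCEP values of 2.54, 3.06 and 1.69, a log2 difference of -0.94 ± 0.34 (SE; adjusted p = 0.527, limma), and -0.83 without corn oil replicate 2. Itih3, which carries hyaluronan in plasma, had corn oil values of 9.04, 9.12 and 8.94 and TCEP values of 8.66, 8.84 and 8.58, a difference of -0.34 ± 0.11 (SE), and -0.30 without corn oil replicate 2. The bright members Fgb, the fibrinogen beta chain, Itih4 and complement C3 had differences of -0.16 ± 0.13, -0.22 ± 0.14 and -0.10 ± 0.14 (SE). Without corn oil replicate 2 these were -0.047, -0.099 and 0.021, so the sign for C3 changed.

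Upstream of the members, 8 of 11 cytokine ligands were measured, with 4 lower and 4 higher means, a median difference of -0.070 (-0.040 without corn oil replicate 2) and 0 past the adjusted threshold. Il6 and Il22 were not well above background on any array, and Clcf1 had no matching probe. Il1a, interleukin-1 alpha, had corn oil values of 1.34, 2.00 and 1.24 and TCEP values of 0.96, 0.85 and 1.04, which did not overlap (log2 difference -0.58 ± 0.21, SE; adjusted p = 0.53, limma). Il1b, interleukin-1 beta, had a difference of -0.16 ± 0.32 and Ctf1, cardiotrophin-1, 0.037 ± 0.12 (SE). Leaving out corn oil replicate 2 gave -0.34 for Il1a and turned the sign of Il1b, to 0.16, and of Ctf1, to -0.047.

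Of 15 receptors and adaptors 13 were measured, 5 with higher and 8 with lower means, a median difference of -0.028 (0.10 without corn oil replicate 2) and 0 past the adjusted threshold. The accessory receptor chain Il1rap had corn oil values of 2.57, 2.63 and 2.76 and TCEP values of 2.93, 2.89 and 2.99, so that every TCEP animal lay above every corn oil animal (log2 difference 0.28 ± 0.094, SE; adjusted p = 0.51, limma). Il22ra1, a chain of the interleukin-22 receptor, had a difference of 0.34 ± 0.12 (SE) and was well above background on 2 of 3 corn oil arrays. It was thus kept only through the TCEP group, where it was higher, so its difference is not independent of the filter. With a filter on all 6 arrays it dropped out, which left 12 genes of this list with a median of -0.060. The shared chain Il6st, the adaptor Myd88 and the receptor Tnfrsf1a had differences of 0.074 ± 0.17, -0.028 ± 0.16 and -0.22 ± 0.14 (SE). These became 0.16, 0.10 and -0.10 without corn oil replicate 2.

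Of 22 kinases, transcription factors and inhibitors 18 were measured, 13 with lower means, a median difference of -0.13 (-0.10 without corn oil replicate 2) and 0 past the adjusted threshold. Ptpn11, the phosphatase SHP2 that binds gp130, had corn oil values of 3.79, 3.79 and 3.71 and TCEP values of 3.39, 3.62 and 3.38, which did not overlap (log2 difference -0.30 ± 0.10, SE; adjusted p = 0.521, limma). Cebpb, a C/EBP factor, had -0.10 ± 0.25 and Bcl3 -0.61 ± 0.56 (SE). Stat3 had corn oil values of 2.75, 4.11 and 3.88 and TCEP values of 3.08, 3.11 and 2.54, a difference of -0.67 ± 0.38 (SE). Corn oil replicate 2 moved all 3: without it Cebpb had -0.21, Bcl3 -0.026 and Stat3 -0.41.

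Negative acute phase genes had lower means in 8 of 10 members, with a median difference of -0.090 and 0 past the adjusted threshold, against lower means for 49.1% of all genes. In 3 of the 10, Alb, Tf and Apoh, the TCEP group lay wholly below corn oil, against 7.06% of all genes. Albumin (Alb), the main plasma protein, had corn oil values of 10.08, 10.04 and 9.95 and TCEP values of 9.76, 9.93 and 9.82, a log2 difference of -0.19 ± 0.095 (SE). Apoh, a phospholipid-binding plasma protein, had -0.095 ± 0.089 (SE). Saa4 and Apoh were named after their values were seen. Transferrin (Tf), transthyretin (Ttr) and the retinol carrier Rbp4 had differences of -0.15 ± 0.092, -0.023 ± 0.093 and -0.084 ± 0.097 (SE). Without corn oil replicate 2 the median was -0.091.

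**Figure D5:**
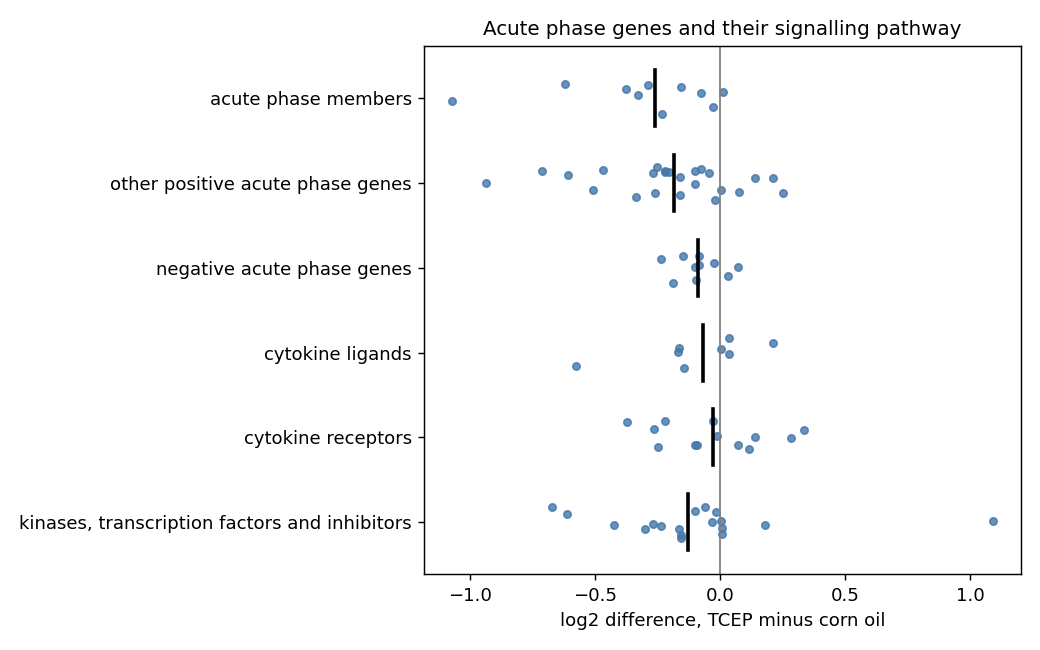
Log2 difference, TCEP minus corn oil, of each measured gene in the member list and in 5 related lists, with black bars at list medians. The medians run from -0.26 for the members to -0.028 for the receptors, and A2m at -1.08 is the lowest point of all lists.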

How the data were processed

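The authors scanned the arrays and extracted signals with Agilent Feature Extraction 10.7.1.1, per the file headers. The deposited scanner files hold linear intensity values per spot, among them a background-subtracted processed signal, and flags. The deposited value table holds, read from its values, the ratio of that signal to the 75th percentile of its array, with column medians of 0.0953 to 0.103, and was used as an alternative.

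Of 62976 spots, 1319 control spots were left out and 64 outlier-flagged values were set to missing. A probe was kept where either group had it well above background on its 3 arrays (37043 probes), and each gene was represented by its brightest probe. RefSeq symbols of assembly GRCr8 matched 27460 of 61657 probes. The array design names an older build, so no probe coordinates are given. Groups were compared by a two-sided limma test (version 3.58.1, R 4.3.3), and p-values were adjusted by Benjamini-Hochberg over all 27642 genes, with a threshold of 0.05; the fit was tested on simulated data. Each replicate is 1 animal, as the treatment protocol states 3 per treatment, and this number limits the precision. Members, lists, motifs and the rule for naming genes were chosen with earlier results of these data known. The rule named all members and, per related list, the 3 brightest genes and up to 4 with an unadjusted p under 0.05 and groups that do not overlap; for cell type lists it was used in part. It also took the 5 genes most like the members in profile, of which 1 is not reported here.

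Alternatives were normexp background correction (offset 50, on median signals), quantile normalization, centring on the median, the deposited table and other filters on dim probes. Further ones were other uses of probes, another variance model and no removal of outlier-flagged spots. The rest were a block for slide or for replicate number, and each array left out. No slide held arrays of both groups, so the slide block cannot separate slide from treatment.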

Additional observations from a re-analysis of the deposited data

How the results depend on the processing

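In each of 18 alternatives 0 members, 0 genes of the related lists and 0 genes overall passed an adjusted p of 0.05; the 18 member probes fitted on their own gave 0 as well. The median of the members ran from -0.40 to -0.11 with 1 array left out and from -0.26 to -0.18 otherwise, and 7 to 10 members had lower means. A2m, Orm1, Hp, Lbp, Cp and Socs3 kept a lower mean in every alternative run, A2m between -1.29 and -0.80 with adjusted p-values of 0.331 to 0.847. Signs changed for Cd14 (0.029 with median centring, -0.16 to 0.21 with 1 array left out) and Lcn2 (-0.027 with normexp, -0.21 to 0.37). They also changed for Hpx (-0.21 to 0.16) and Serpina3n (-0.35 to 0.018) with 1 array left out. The labels do not state that replicate numbers pair animals. Deviations from the group means correlated at -0.048, -0.16 and -0.015 between animals of the same number, and at -0.066 to 0.12 between the others. With 3 animals per group these values cannot show whether animals were paired. With the replicate block in limma the median was -0.26, 0 members passed and the smallest adjusted p over all genes was 0.702. The 3 animals per group limit the precision, with a median standard error of 0.145 over all genes.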

Other observations

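Socs2 and Cish, relatives of Socs3 that growth hormone is known to induce through STAT5, varied far more between animals than Socs3 did. Socs2 had corn oil values of -0.69, 1.67 and -2.07 and TCEP values of 0.78, -0.73 and 2.14 log2 units. Cish had corn oil values of -1.58, 1.19 and -0.88 and TCEP values of 0.75, -1.74 and -0.26. Their log2 differences between TCEP and corn oil were 1.09 ± 1.1 and 0.0086 ± 0.89 (SE), and 2.11 ± 0.89 and 0.81 ± 0.73 without corn oil replicate 2. Hamp, which encodes the iron hormone hepcidin and which interleukin-6 is known to induce, also varied between animals, spanning 2.01 log2 units in TCEP. Its lowest value was 5.63 in TCEP replicate 2, and the other TCEP animals had 7.63 and 7.65, against 6.54 to 7.54 in corn oil. Among the members, Cd14 was also lowest in TCEP replicate 2. The 3 genes were picked for their spread after their values were seen.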
